A study of Mus musculus with 18 samples.

Results

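Common lymphoid progenitors (CLPs) were compared with multipotent progenitors (MPPs), both sorted from the bone marrow of wild-type (WT) mice. All 6 libraries of these 2 groups were used, 3 of CLPs and 3 of MPPs, out of 18 RNA-seq libraries in the series. These libraries were taken by their labels, and no measured value was used to pick among libraries. The comparison and the gene lists were set with earlier results of these data known. WT mice were Trim33 fl/fl on the C57BL/6 strain, 6 to 8 weeks old. They carried the floxed allele of *Trim33* (a transcriptional regulator of the TIF1 family) without Cre-ERT2, and per the study's legends were given tamoxifen like the mice in which *Trim33* was deleted, so both populations share the floxed allele and the drug. MPPs were sorted as Lin- Sca-1+ CD117+ CD34+ FLT3+ cells and CLPs as Lin- CD11c- Sca-1+ CD117+ CD127+ FLT3+ cells. The replicates are given as biological repeats, and how many mice made up a library is not given in the sources used here. The CLP gate does not select on CD34 and the MPP gate does not select on CD127 or CD11c.

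MPPs lie just below the haematopoietic stem cell, have lost long-term self-renewal and can still form every blood lineage. CLPs arise from them and give rise to B cells, T cells, innate lymphoid cells and part of the plasmacytoid DCs (pDCs). B lineage entry depends on the E protein E2A (*Tcf3*), on IL-7 receptor signalling and on EBF1, which in turn acts upstream of PAX5; RAG1 and RAG2 then cut the immunoglobulin genes and the surrogate light chain (VPREB and lambda 5) pairs with the first heavy chain. The pDC fate depends on the E protein E2-2 (*Tcf4*), and type 1 conventional DCs require IRF8, whose need in pDCs is debated. The comparison asks which of these programmes, and which stem, myeloid and erythroid genes, differ in RNA level between the 2 populations before any deletion of *Trim33*.

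Expression was measured as FPKM, fragments mapped to a gene per kilobase of its transcript and per set number of mapped fragments in the library. Depth, estimated from the steps between low FPKM values, was about 19300000 to 21100000 mapped reads per library. The CLP and MPP values stand in separate tables, so that table and population cannot be told apart. All 18169 genes in both tables had identical transcript identifiers there. Over 3022 genes with low values, the smallest value above 0 had a median ratio of 1.0 between the tables. That value was sought in all libraries of each table, those with *Trim33* deleted included. FPKM were rounded to 2 decimals, so this ratio cannot show small differences in scale. Values below are FPKM rescaled by the median ratios of 10546 genes, with factors of 0.965 to 1.02. The log2 fold changes (log2FC) are CLP minus MPP on the log2(rescaled FPKM + 1) scale, where low genes show less than their full change. A gene was called when its log2FC was at least 1 in size and its limma p, adjusted by Benjamini-Hochberg over the 12511 genes tested, was 0.05 or less. Where 3 values are given per group they are replicates 1 to 3, and where one set stands against another the CLP values come first. The p-values weigh the difference between the 2 groups against the spread of libraries within each group. They cannot separate the population from its table. Bulk RNA cannot tell fewer cells of a type from less RNA per cell.

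One library, CLP replicate 1, stood apart. Its Spearman correlation with the other CLP libraries was 0.977 and 0.977, against 0.991 between replicates 2 and 3. *Xist*, the RNA of the silenced X chromosome, read 123, 29.6 and 25.2 FPKM in CLP replicates 1 to 3 and 22.4, 19.2 and 22.5 in MPPs, and the Y-linked gene *Eif2s3y* read 0, 9.67 and 16.6 against 12.8, 15.9 and 12.4. CLP replicate 1 thus was the only one of the 6 libraries without RNA of the Y chromosome by this gene. *Col1a1*, which encodes the type I collagen of bone and stroma, read 0.119, 127 and 163 FPKM in CLPs and 2.31, 2.196 and 1.61 in MPPs, and the heat shock chaperone *Hspa1a* read 10.5, 457 and 817 against 218, 199.9 and 191. CLP replicates 2 and 3 held far more collagen and chaperone RNA than replicate 1. None of the 5 sex-linked genes, 11 chaperone genes or *Col1a1* was called with all 6 libraries. The part of these differences in the results below was not tested, and every list count below is given with and without this library where the counts differ.

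**Figure D1:**
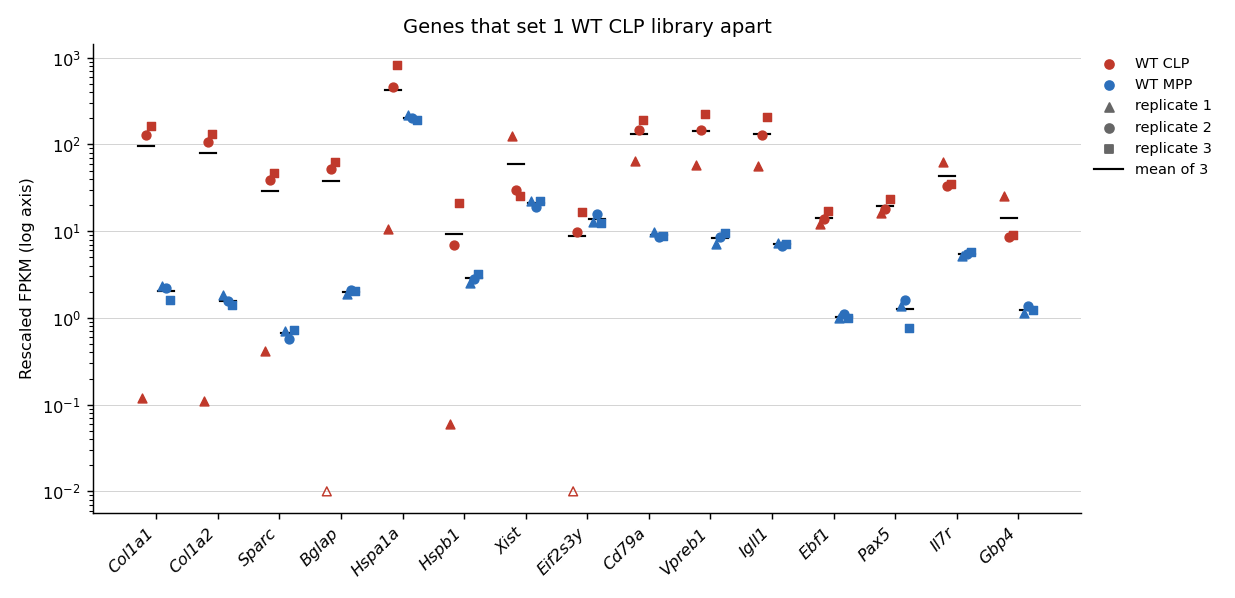
Rescaled FPKM (log axis) of 15 genes in each WT CLP (red) and WT MPP (blue) library; symbols mark the replicate, bars the mean of 3, and open symbols at the lower edge a value of 0. CLP replicate 1 (red triangles) lies below the other CLP libraries for the collagen, osteoblast and chaperone genes and for *Cd79a*, *Vpreb1* and *Igll1*, and above them for *Xist*, *Il7r* and *Gbp4*.

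Genes of the sort markers were read as a check of the gates and not as findings, and of these 5 genes 1 was higher and 2 were lower. *Il7r* (CD127) read 62.7, 33.2 and 35.1 FPKM in CLPs and 5.22, 5.41 and 5.74 in MPPs, and *Flt3* read 308, 301 and 279.7 against 261, 261 and 266. *Kit* (CD117), at 13.8, 13.5 and 11.9 against 70.9, 73.6 and 70.03 FPKM, and *Cd34*, at 155, 154 and 139 against 446, 434 and 485 FPKM, were lower in CLPs in every library. *Ly6a* (Sca-1), a marker of both gates, read 25.4, 30.5 and 44.5 FPKM in CLPs and 58.7, 59.3 and 74.7 in MPPs. Its log2FC of -0.95 ± 0.20 SE stayed just inside the fold threshold. Of the 5 genes, 3 were lower with quantile normalization or without CLP replicate 3 or MPP replicate 1 or 2. Of 6 tested genes (of 8) for antigens that the sort excluded, 3 were higher in CLPs, *Itgax* and *Cd8a* among them, and 3 were lower, *Itgam* and *Ly6g* among them. Of these, *Itgam* was not called without CLP replicate 3 (log2FC -0.92). *Itgax* (CD11c) read 60.7, 71.01 and 56.8 FPKM in CLPs and 3.703, 3.41 and 3.401 in MPPs (log2FC 3.82 ± 0.10 SE, adjusted p = 5.55e-07), although the CLPs were sorted as CD11c- cells and the MPP gate leaves CD11c out.

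Of the 12511 genes tested, 595 (4.76%) were called higher in CLPs and 633 (5.06%) lower, together 1228 or 9.82%. All counts of list and family members below are to be read against these shares. The median log2FC of all genes tested was -0.0079, and 290 of the called genes differed by at least 2 on the log2 scale, 144 higher and 146 lower. Without CLP replicate 1 the counts were 623 higher and 647 lower, and 1127 of the 1228 called genes were called again. The rises were led by the B lineage and early lymphoid surface gene *Ly6d*, the pDC genes *Siglech* and *Spib* and the receptor kinase gene *Epha2*. Among the largest falls were those of the histone gene *Hist1h2ap*, the stem cell factor *Hlf* and *Myct1*.

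**Figure D2:**
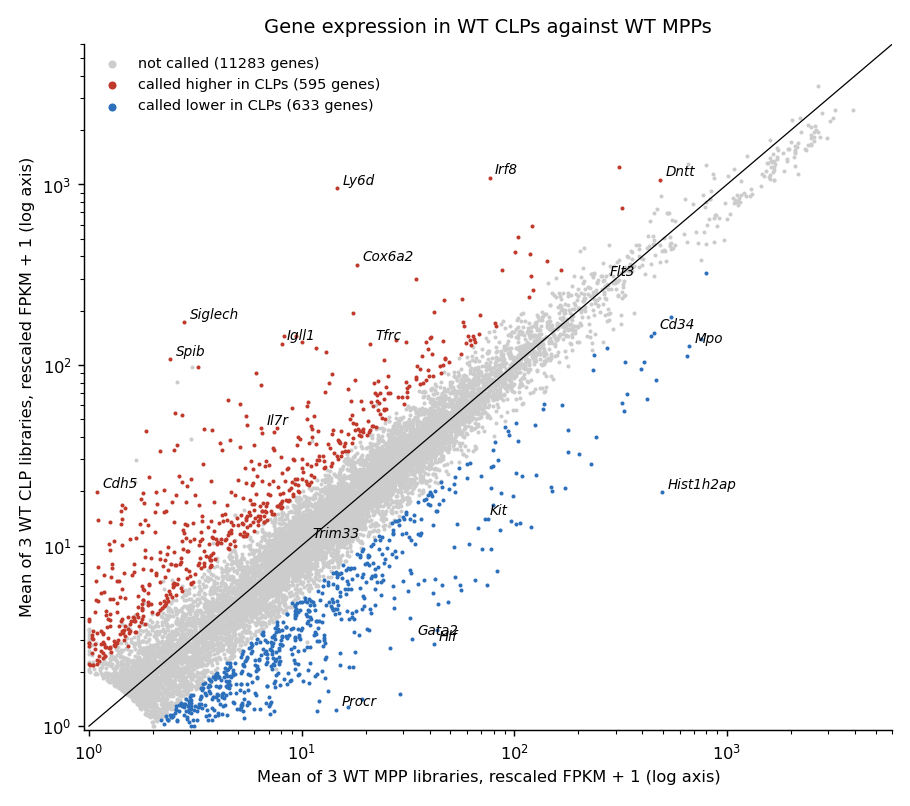
Mean rescaled FPKM + 1 of the 3 WT CLP libraries (vertical) against the 3 WT MPP libraries (horizontal) for the 12511 genes tested, both on log axes; red and blue points were called higher and lower in CLPs and the line marks equal levels. *Ly6d*, *Siglech*, *Spib* and *Irf8* lie far above the line, *Hlf* and *Procr* far below it, and *Trim33* and *Flt3* close to it.

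The early B lymphoid programme was higher in CLPs. Of its 28 tested genes (of 31 listed), 20 were higher and none lower, with a median log2FC of 1.80, against 4.76% of all genes called higher. Its counts were the same without CLP replicate 1, with a median of 1.95. *Ebf1*, the factor that commits cells to the B lineage, read 11.98, 13.8 and 17.3 FPKM in CLPs and 0.9901, 1.103 and 1.01 in MPPs (log2FC 2.90 ± 0.14 SE, adjusted p = 4.74e-06). Its partner *Pax5* read 16.2, 18.2 and 23.5 FPKM against 1.39, 1.605 and 0.762 (log2FC 3.18 ± 0.18 SE, adjusted p = 1.19e-05). Every CLP library lay above every MPP library for both genes. The groups did not overlap, in either direction, in 56% of all genes tested. The E protein gene *Tcf3* itself was not called, at 120.3, 137 and 148 FPKM in CLPs and 77.6, 70.99 and 74.9 in MPPs, and its log2FC of 0.84 ± 0.10 SE stayed under the fold threshold, as did those of *Ikzf1* (0.62 ± 0.14) and *Bcl11a* (0.70 ± 0.13), which encode regulators needed for lymphoid priming.

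Genes of the pre-B cell receptor were higher and spread widely among the CLP libraries. *Igll1* (lambda 5) read 56.8, 128 and 206 FPKM in CLPs and 7.27, 6.81 and 7.07 in MPPs, and its log2FC was 3.85 ± 0.39 SE with an adjusted p of 1.99e-04. *Vpreb1* read 58.1, 145 and 225 FPKM in CLPs and 7.07, 8.57 and 9.63 in MPPs, and the signalling chain *Cd79a* read 63.7, 146 and 189 against 9.76, 8.46 and 8.904. In all these genes CLP replicate 1 was the lowest of the CLP libraries and still above every MPP library. The log2FC of *Igll1* was 4.34 without that library, that of *Vpreb1* 4.28 in place of 3.74, and that of *Cd79a* 4.06 in place of 3.60. *Vpreb2*, *Vpreb3*, *Pou2af1* (an octamer coactivator) and *Mzb1* (an endoplasmic reticulum cofactor of B cells) were also lowest among CLPs in replicate 1, with log2FC between 3.05 and 3.68. By contrast *Blnk*, the adaptor of the pre-B cell receptor, read 122, 129.7 and 116 FPKM in CLPs and 10.7, 10.8 and 10.4 in MPPs, with CLP libraries within a narrow range (log2FC 3.41 ± 0.08 SE, adjusted p = 3.05e-07).

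Of the recombination genes, 1 of 2 was called. *Rag1* read 16.9, 15.5 and 16.8 FPKM in CLPs and 1.57, 1.53 and 1.24 in MPPs (log2FC 2.83 ± 0.10 SE, adjusted p = 1.43e-06), whereas *Rag2* read 4.78, 5.53 and 5.68 against 2.67, 2.88 and 3.09 and its log2FC of 0.70 ± 0.11 SE did not reach the fold threshold. *Dntt*, the terminal transferase that adds bases at the joins, was already at 470.1, 446 and 536 FPKM in MPPs and stood at 983, 1032 and 1176 in CLPs. *Dntt* thus was the most abundant gene of the list in MPPs, and was higher in CLPs by a log2FC of 1.13 ± 0.12 SE. *Ly6d*, the surface protein that marks B-biased CLPs, read 721, 930.4 and 1209.6 FPKM in CLPs and 14.4, 12.3 and 14.5 in MPPs, the largest log2FC among all genes tested (5.99 ± 0.18 SE). Among the 8 genes not called, *Btk* (a B cell receptor kinase) read 40.8, 41.97 and 42.04 FPKM in CLPs and 44.2, 43.3 and 46.1 in MPPs, and *Cd24a* read 158, 202 and 303 against 186, 186 and 198, with overlapping groups. The lymphoid factors *Lef1* (log2FC 3.21 ± 0.16), *Irf4* (1.85 ± 0.28), *Bach2* (1.68 ± 0.18), *Ets1* (1.45 ± 0.10) and *Foxo1* (1.23 ± 0.19), each ± SE, were called higher.

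**Figure D3:**
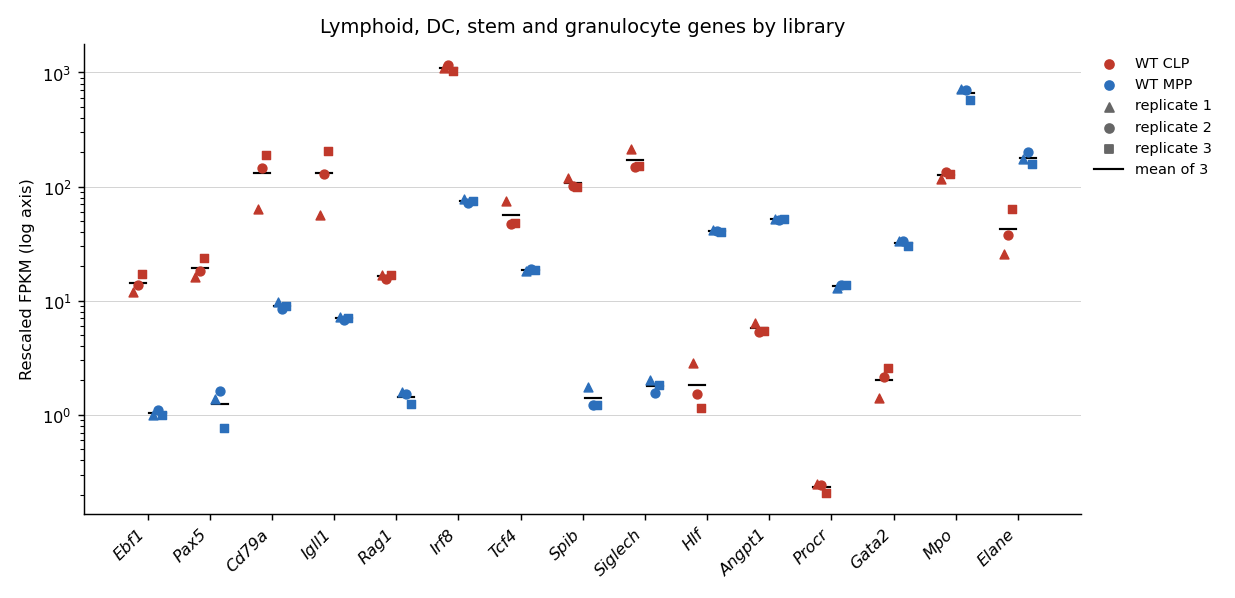
Rescaled FPKM (log axis) of 15 genes in each WT CLP (red) and WT MPP (blue) library; symbols mark the replicate and bars the mean of 3. The B lineage and DC genes from *Ebf1* to *Siglech* are higher in every CLP library than in any MPP library, and the stem and granulocyte genes from *Hlf* to *Elane* are lower.

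Promoters of the early B genes were searched for the core of the EBF1 motif, because *Ebf1* and many of these genes were higher together. RefSeq promoters of GRCm38.p6 (250 bases before to 50 after the start of transcription) were found for 15 of the 20 called genes, and 2 of these genes (13.3%) held the core CCCNNGGG, which reads the same on both strands. The core was in 20.9% of the promoters of 9830 tested genes. The E2A core CAGNTG, searched on both strands, was in 8 of the 15 (53.3%) and in 47.7% of the tested genes, and the PU.1 core GAGGAA was in 8 of the 15 (53.3%) and in 30.5%. A match is a stretch of letters and not a measured binding site. The 2 promoters that held the EBF1 core are printed from 250 bases to 1 base before the start of transcription, with the core in capitals. That of *Igll1* lies at chr16:16863986-16864235 on the minus strand and that of *Foxo1* at chr3:52268087-52268336 on the plus strand.
Igll1: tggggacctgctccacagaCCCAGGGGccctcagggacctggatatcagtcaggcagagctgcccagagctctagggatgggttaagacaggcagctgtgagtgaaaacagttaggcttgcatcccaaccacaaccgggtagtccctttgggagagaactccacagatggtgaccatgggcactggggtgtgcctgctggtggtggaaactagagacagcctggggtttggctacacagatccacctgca
Foxo1: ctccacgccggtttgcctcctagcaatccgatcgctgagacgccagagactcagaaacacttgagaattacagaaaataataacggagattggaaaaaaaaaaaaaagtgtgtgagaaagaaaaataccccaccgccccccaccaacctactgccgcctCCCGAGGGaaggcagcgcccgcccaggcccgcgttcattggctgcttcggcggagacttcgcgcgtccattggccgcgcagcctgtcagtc
In *Igll1*, the pre-B cell receptor gene with the largest rise, the core begins 231 bases before the start. The *Foxo1* core begins 91 bases before it, and the *Foxo1* level was 13.9, 11.1 and 12.7 FPKM in CLPs and 5.099, 6.22 and 3.33 in MPPs.

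Some genes of the T and innate lymphoid lineages were higher in CLPs. Of 18 tested genes (of 24 listed), 6 were higher, against 4.76% of all genes, and none lower, with a median log2FC of 0.61. The 6 include *Notch1* and *Hes1*, which the Notch list below also holds. Without CLP replicate 1, *Notch1* lost its call (log2FC 0.86) and *Lck* gained one (1.02 in place of 0.90), so that the count stayed at 6. *Cd7*, an early lymphoid surface gene, read 114, 174 and 143 FPKM in CLPs and 7.47, 6.87 and 7.41 in MPPs (log2FC 4.11 ± 0.15 SE, adjusted p = 1.43e-06). *Thy1* (CD90) read 14.8, 19.4 and 20.9 FPKM against 5.53, 4.87 and 4.85, and the T cell receptor chain *Cd247* read 9.19, 10.1 and 13.5 against 2.93, 3.82 and 3.85. The genes that define T cell commitment stayed low. *Bcl11b* read at most 0.163 FPKM in any of the 6 libraries, *Cd3e* at most 0.406 and *Tcf7* (TCF-1) 1.01, 0.816 and 1.24 in CLPs and 1.26, 1.51 and 0.987 in MPPs. *Gata3* was 0.805, 0.459 and 0.756 FPKM in CLPs and 2.15, 2.18 and 2.25 in MPPs, a log2FC of -0.94 ± 0.12 SE that did not pass the fold threshold. *Cd27* (log2FC -0.96 ± 0.10 SE) and *Tox* (-0.79 ± 0.14 SE) were below the MPP level in every CLP library and also inside that threshold.

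In the Notch pathway, which directs T lineage choice, 3 of 18 tested genes were higher, against 4.76% of all genes, and none lower (median log2FC 0.08). These were the target *Hes1*, at 13.6, 7.24 and 8.88 FPKM in CLPs and 2.27, 2.52 and 1.58 in MPPs, the ubiquitin ligase gene *Dtx4* and the receptor *Notch1*. *Notch1* read 109, 76.3 and 72.5 FPKM in CLPs and 45.6, 42.7 and 33.8 in MPPs, highest in CLP replicate 1, and its log2FC was 1.05 with that library and 0.86 without it, under the fold threshold, as it was without MPP replicate 3 (0.92). *Hes5* and the feedback gene *Nrarp* passed the threshold without it (log2FC 1.06 and 1.12), so that 4 genes were then higher. Of 17 genes of IL-7 receptor signalling 1 was called, *Socs2*, an inhibitor of cytokine signalling, at 13.7, 8.196 and 16.2 FPKM in CLPs and 2.77, 2.57 and 2.94 in MPPs. The median log2FC of that list was 0.0086, near that of all genes, of which 9.82% were called. The shared receptor chain *Il2rg* read 36.2, 40.2 and 42.1 FPKM in CLPs and 76.1, 80.02 and 82.6 in MPPs, below the MPP level in every CLP library, with a log2FC of -0.99 ± 0.09 SE just inside the fold threshold.

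The DC programme was also higher in CLPs. Of 25 tested DC genes (of 28), 19 were higher in CLPs and none lower, against 4.76% of all genes called higher. Their median log2FC was 2.08, and the counts were the same without CLP replicate 1. *Irf8*, required for type 1 conventional DCs, read 1091, 1154 and 1028 FPKM in CLPs and 78.6, 72.5 and 75.4 in MPPs, 14.4-fold higher by the means (log2FC 3.83 ± 0.09 SE, adjusted p = 3.05e-07). *Spib*, an ETS factor of pDCs, read 119, 101 and 99.2 FPKM against 1.76, 1.23 and 1.22, and *Siglech*, a surface lectin of pDCs and their precursors, read 215, 147 and 151 against 2.02, 1.57 and 1.84. Both were nearly silent in every MPP library and high in every CLP library. *Tcf4* (E2-2), the factor that holds pDC identity, read 74.1, 47.02 and 47.6 FPKM in CLPs and 18.1, 19.1 and 18.4 in MPPs (log2FC 1.52 ± 0.17 SE, adjusted p = 2.94e-04).

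Further pDC genes were higher too. *Cox6a2*, which encodes a subunit of cytochrome c oxidase, read 331, 378 and 369 FPKM in CLPs and 17.04, 16.3 and 17.99 in MPPs. *Bst2* (PDCA-1), the antigen used to stain pDCs, read 477, 539 and 513 against 100.2, 96.5 and 113, and *Runx2* read 184, 102 and 113 against 30.98, 31.1 and 27.4. The nucleic acid sensor *Tlr9* read 11.4, 9.39 and 9.11 FPKM in CLPs and 0.802, 0.6399 and 0.557 in MPPs, whereas its relative *Tlr7*, at 13.5, 7.89 and 9.52 against 5.505, 5.98 and 6.53, was not called (log2FC 0.66 ± 0.18 SE). *Pacsin1* (log2FC 3.62 ± 0.15), *Cd300c* (4.56 ± 0.17), *Klrd1* (2.95 ± 0.12) and *Ctsh* (3.18 ± 0.09), each ± SE, were also higher. *Irf7*, the interferon inducer of mature pDCs, read 38.3, 31.9 and 39.5 FPKM in CLPs and 28.99, 26.3 and 32.2 in MPPs and was not called.

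Besides *Itgax*, the list held genes of conventional DCs. *Clec9a*, a receptor of type 1 conventional DCs and their precursors, read 4.86, 3.88 and 2.69 FPKM in CLPs and 0.267, 0.305 and 0.498 in MPPs (log2FC 1.80 ± 0.18 SE, adjusted p = 1.53e-04). *Ifi205*, which the study counts among genes of type 1 conventional DCs, went the other way. It read 0.199, 0 and 0.197 FPKM in CLPs and 1.15, 0.660 and 1.03 in MPPs. Its log2FC of -0.78 ± 0.14 SE, the 1 negative value among the tested DC genes, stayed inside the fold threshold. *Xcr1*, *Batf3* and *Zbtb46*, which mark committed conventional DCs, had means under 0.5 FPKM over the 6 libraries and were not tested. *Mycl*, a MYC family member of DC progenitors, read 33.4, 32.9 and 31.2 FPKM in CLPs and 1.19, 1.201 and 1.07 in MPPs (log2FC 3.96 ± 0.09 SE, adjusted p = 3.05e-07), whereas *Myc* read 128, 138 and 126 against 133, 122 and 131 and *Mycn* 8.71, 9.399 and 10.4 against 13.5, 12.1 and 15.8.

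Among 24 tested transcription factors of the PU.1, C/EBP, Runx, Ikaros, IRF and E protein families, 6 were higher and 1 lower, with a median log2FC of 0.37. The 6 were *Spib*, *Irf8*, *Runx2*, *Tcf4*, *Irf4* and *Id3*, an inhibitor of E proteins. *Id3* read 16.5, 43.8 and 52.4 FPKM in CLPs and 15.3, 12.9 and 13.3 in MPPs, with CLP replicate 1 close to the MPP level, and its log2FC was 1.23 ± 0.37 SE (adjusted p = 0.0307) with that library and 1.72 without it, and it was not called when any 1 of the other 5 libraries was left out (log2FC 0.92 to 1.296). *Spi1* (PU.1), a relative of *Spib*, was not called. It read 69.1, 77.7 and 62.3 FPKM in CLPs and 136, 137 and 137 in MPPs, at a log2FC of -0.96 ± 0.10 SE that stayed just inside the fold threshold. *Cebpa*, the granulocyte factor, read 22.2, 34.9 and 27.3 against 49.7, 48.8 and 48.9. Without CLP replicate 1, *Gfi1b* was lower as well. The gene called lower was *Ikzf2* (Helios), at 1.302, 0.836 and 0.715 FPKM in CLPs and 3.76, 4.08 and 3.79 in MPPs.

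**Figure D4:**
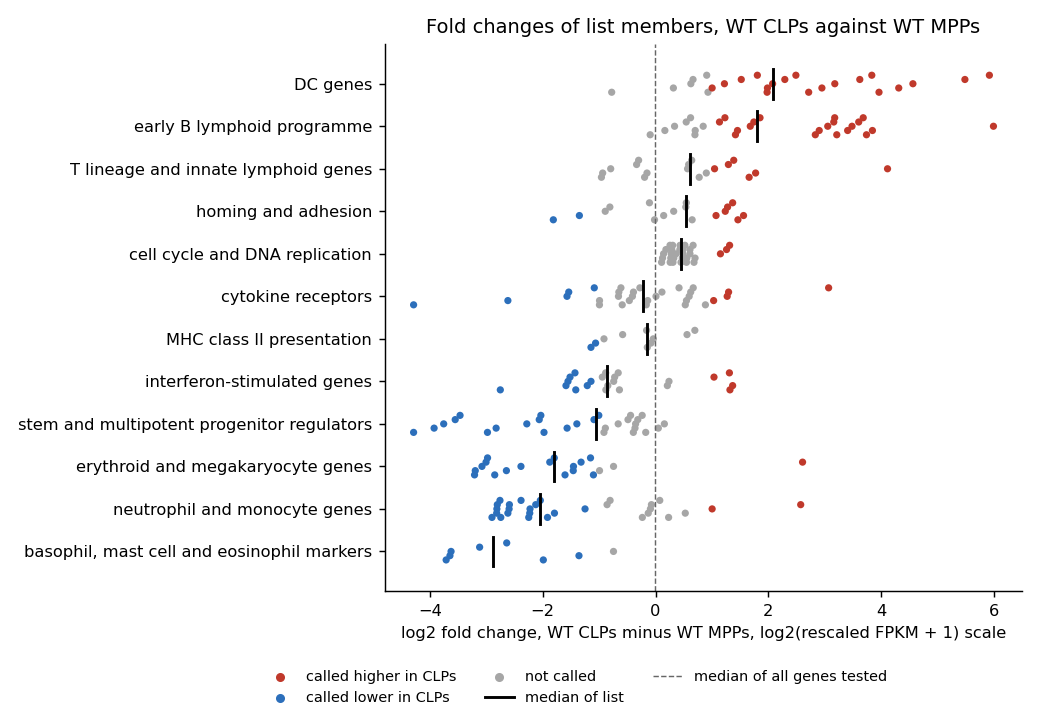
Log2 fold change (WT CLPs minus WT MPPs, log2(rescaled FPKM + 1) scale) of each tested member of 12 gene lists; red and blue points were called higher and lower, grey points were not called, black bars are list medians and the dashed line is the median of all 12511 genes tested. The DC and early B lists lie to the right, the stem, erythroid, neutrophil and basophil lists to the left.

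Stem and multipotent progenitor regulators were lower in CLPs. Of 28 tested (of 30), none was higher and 15 were lower, with a median log2FC of -1.05, against 5.06% of all genes called lower. *Hlf*, a bZIP factor of stem cells, read 2.84, 1.52 and 1.14 FPKM in CLPs and 41.5, 40.5 and 40.2 in MPPs (log2FC -3.93 ± 0.20 SE, adjusted p = 6.61e-06), and *Procr* (EPCR), a stem cell surface receptor, read 0.249, 0.245 and 0.207 against 13.01, 13.8 and 13.6. Both were far lower in every CLP library than in any MPP library. *Gata2*, which maintains stem cells, read 1.41, 2.14 and 2.56 FPKM in CLPs and 33.3, 33.3 and 29.9 in MPPs, and the niche ligand *Angpt1* read 6.42, 5.28 and 5.47 against 52.3, 51.5 and 51.98.

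Within families of this list some members were called and others were not. Among the HOXA genes, *Hoxa9* read 20.8, 22.5 and 20.8 FPKM in CLPs and 42.3, 39.7 and 50.3 in MPPs and *Hoxa10* 1.91, 1.56 and 1.23 against 6.65, 5.83 and 7.29, whereas *Hoxa7* read 10.3, 10.2 and 8.98 against 9.07, 8.63 and 10.8, with overlapping groups. *Hoxa9* was at the fold threshold (log2FC -1.01 ± 0.10 SE) and lost its call without CLP replicate 1 (-0.99), CLP replicate 3 (-0.98) or MPP replicate 3 (-0.91); *Gfi1b*, a repressor of stem and erythroid cells, gained one (-1.17), so that the count stayed at 15. Of the SCL complex, *Tal1* (log2FC -2.03 ± 0.09 SE) and *Lmo2* (-2.06 ± 0.09 SE) were lower, while the related *Lyl1* (-0.39 ± 0.10 SE) was not called. *Erg*, *Fli1*, *Runx1* and *Etv6*, further factors of the stem cell network, were not called, with log2FC of -0.91, -0.36, 0.16 and -0.44.

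Myeloid genes were lower in CLPs as well. Of 29 tested neutrophil and monocyte genes 18 were lower and 2 higher (median log2FC -2.04). The primary granule genes, made first in granulocyte progenitors, included *Mpo* at 116, 134 and 128 FPKM in CLPs and 711, 702 and 579 in MPPs, *Elane* at 25.8, 37.8 and 63.9 against 173, 200.4 and 158, and *Prtn3* at 39.1, 60.2 and 63.8 against 319.6, 328 and 329. Genes of later granules and of the neutrophil cytosol, *Ngp* at 59.2, 163 and 22.96 FPKM in CLPs and 465, 464 and 452 in MPPs and *S100a8* at 73.6, 213 and 47.8 against 605, 639 and 697, were highest among CLPs in replicate 2. *Ltf*, *Camp*, *Ngp*, *S100a8* and *S100a9* shared that order in CLPs, and their MPP libraries differed little. *Csf3r*, the G-CSF receptor, read 9.46, 11.5 and 6.47 FPKM in CLPs and 60.8, 60.2 and 58.9 in MPPs. The 2 higher genes were *Ly86*, the MD-1 partner of RP105, at 74.7, 84.01 and 78.2 FPKM in CLPs and 11.2, 12.2 and 14.1 in MPPs, and *Ly6c2*, at 136, 175 and 179.9 against 79.9, 85.7 and 76.5, which the DC list also holds and which was not called without CLP replicate 2 or 3 or MPP replicate 1 or 3 (log2FC 0.94 to 0.99). *Csf1r*, the M-CSF receptor, read 26.1, 24.7 and 14.99 FPKM in CLPs and 15.5, 15.3 and 12.9 in MPPs and was not called.

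Erythroid and megakaryocyte genes were lower in 16 of 19 tested and higher in 1 (median log2FC -1.80); without CLP replicate 1, 17 were lower. The carbonic anhydrase *Car2* read 15.8, 18.6 and 24.8 FPKM in CLPs and 164, 162 and 188 in MPPs (log2FC -3.08 ± 0.16 SE, adjusted p = 6.66e-06), and the alpha globin gene *Hba-a1* read 25.98, 16.6 and 17.6 against 159.9, 149.8 and 136. Reads of the near-identical globin copies *Hba-a1* and *Hba-a2*, and of *Hbb-bs* and *Hbb-bt*, cannot be assigned to 1 copy with certainty. The factors *Gata1* and *Klf1* were low in both populations, at 0.169, 0.194 and 0.611 and 0.308, 0.5199 and 0.756 FPKM in CLPs and 2.05, 2.402 and 2.38 and 3.63, 3.41 and 3.81 in MPPs. The gene of this list that was higher, *Tfrc*, encodes the transferrin receptor, which dividing cells of all kinds use for iron uptake. It read 167, 102 and 120.3 FPKM in CLPs and 20.1, 20.9 and 19.2 in MPPs (log2FC 2.61 ± 0.16 SE, adjusted p = 1.68e-05). Basophil, mast cell and eosinophil markers were lower in 7 of 8 tested genes (median log2FC -2.88), among them *Prss34* at 1.81, 16.4 and 16.8 FPKM in CLPs and 119.8, 126 and 110.1 in MPPs and *Cpa3* at 0.258, 0.408 and 1.02 against 12.5, 11.98 and 12.4.

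Cytokine receptors were called in both directions, 4 of 30 higher and 5 lower, against 4.76% and 5.06% of all genes (median log2FC -0.22). The higher ones were *Csf2rb2*, a beta chain of the IL-3 receptor, at 52.01, 44.5 and 40.3 FPKM in CLPs and 4.65, 5.11 and 3.88 in MPPs, *Il6st* (gp130), *Il10ra* and *Ifnar1*. *Ifnar1* lost its call without CLP replicate 1 (log2FC 1.03 with it and 0.93 without), and *Epor* gained one in the lower direction, which left 3 higher and 6 lower. Among the lower ones, besides *Csf3r*, were *Il1r1* at 9.46, 7.44 and 7.12 FPKM in CLPs and 25.3, 26.2 and 25.2 in MPPs, *Il15ra* and *Il12rb1*. Chains of the GM-CSF and IL-3 receptors that pair with the beta chains differed less, *Csf2ra* with a log2FC of -0.41 ± 0.09 SE and *Il3ra* with -0.14 ± 0.10 SE.

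Of 17 homing and adhesion genes 6 were higher and 2 lower (median log2FC 0.54). Without CLP replicate 1 the counts were the same and the median was 0.31. *Cxcr4*, the receptor that retains progenitors in marrow, read 83.7, 159.5 and 162 FPKM in CLPs and 42.3, 62.1 and 30.8 in MPPs (log2FC 1.56 ± 0.31 SE, adjusted p = 0.00534). The P-selectin ligand *Selplg* read 279, 353 and 296 against 120.3, 112 and 125. *Ccr7*, *Cxcr3* and *Itgb7* were also higher. The stem cell adhesion gene *Esam* read 0.318, 0.0612 and 0.0829 FPKM in CLPs and 3.04, 2.93 and 3.13 in MPPs, and *Itga6* was likewise lower.

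Cell cycle genes were higher by small amounts, and few reached the fold threshold. All 30 tested genes of the cell cycle and DNA replication list had a log2FC above 0, with a median of 0.44. Of these, 19 had a limma adjusted p of at most 0.05, against 20.8% of all genes tested that were higher by that measure. The fold threshold was reached by 3, against 4.76% of all genes called higher. These were *Ccne1* (cyclin E1) at 12.4, 15.6 and 15.9 FPKM in CLPs and 5.099, 5.94 and 5.48 in MPPs, *E2f2* at 23.1, 30.8 and 32.02 against 10.8, 10.6 and 11.1, and the ribonucleotide reductase *Rrm2* at 91.6, 96.1 and 107 against 44.7, 40.97 and 45.4. *Mki67* read 92.01, 74.3 and 90.9 FPKM in CLPs and 61.8, 61.2 and 51.6 in MPPs. Among 14 G1 regulators 5 were higher and none lower (median log2FC 0.20). *Ccnd3* (cyclin D3), the D cyclin of dividing pre-B cells, read 353, 462 and 454 FPKM in CLPs and 101, 97.4 and 100.4 in MPPs (log2FC 2.06 ± 0.12 SE, adjusted p = 1.10e-05), and *Ccnd1* read 41.02, 46.4 and 38.1 against 10.7, 11.02 and 11.2, while *Ccnd2* read 42.04, 32.6 and 39.5 against 35.6, 35.8 and 34.7. The inhibitors *Cdkn2c* (p18) at 35.1, 44.9 and 48.04 FPKM against 13.3, 12.5 and 13.4 and *Cdkn2d* (p19) at 54.3, 88.5 and 84.5 against 32.05, 28.9 and 31.7 were higher as well. The fifth gene was *Mycl*, the MYC family member described above, which is not itself a cyclin, kinase or inhibitor.

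Interferon-stimulated genes split, with 4 of 22 higher and 8 lower (median log2FC -0.86). The lower ones included *Oasl2* at 8.32, 6.16 and 7.83 FPKM in CLPs and 24.8, 22.4 and 23.6 in MPPs and *Rtp4* at 5.84, 6.45 and 6.88 against 20.4, 19.6 and 23.7, and the higher ones were *Mx1* at 9.58, 9.46 and 8.84 against 3.11, 2.81 and 3.06, *Mx2*, *Ifi27l2a* and *Stat2*. Without CLP replicate 1, *Ifi44* was also lower, making 9. In the MHC class II list (median log2FC -0.15) 2 of 10 genes, *H2-Ab1* at 28.3, 37.04 and 43.4 FPKM in CLPs and 73.4, 77.3 and 90.95 in MPPs and *H2-Eb1* at 6.67, 9.63 and 8.59 against 16.4, 18.2 and 20.3, were lower, and without CLP replicate 1 neither was called (log2FC -0.98 and -0.93). *H2-Eb1* was not called without MPP replicate 3 either (-0.99). Of 19 glycolysis genes 2 were lower and none higher (median log2FC -0.55). The hexokinase gene *Hk3*, which granulocytes and monocytes express, read 4.21, 6.47 and 4.45 FPKM in CLPs and 44.9, 44.9 and 44.7 in MPPs, and *Aldoa* read 105, 144 and 119.6 against 268, 267 and 284. Without CLP replicate 1, *Hk1* and *Ldhb* were called lower too.

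Immediate early and chaperone genes varied between CLP libraries. Of 21 immediate early genes 3 were lower, *Egr1*, *Ier3* and *Klf6*, and none higher (median log2FC -0.52). Without CLP replicate 3, 5 were lower, and without CLP replicate 1 the count was 3 and the median -0.33. *Egr1* read 228, 309.9 and 432 FPKM in CLPs and 906, 805 and 673 in MPPs (log2FC -1.33 ± 0.23 SE, adjusted p = 0.00249). *Fos* read 1099.8, 2349 and 2396 FPKM in CLPs and 2564, 2429.5 and 2659.8 in MPPs, and *Klf2* read 189, 641 and 1072 against 603, 557 and 500.1. In both genes CLP replicate 1 was lowest. None of 11 chaperone genes was called by limma with all libraries (0 had an unadjusted p of at most 0.05), and 3 (*Hspa1a*, *Hspa1b* and *Hspb1*) were called higher without CLP replicate 1. The median log2FC of the chaperone list was 0.0085 with all libraries, 0.28 without CLP replicate 1 and -0.23 without CLP replicate 3.

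In the BCL2 family 1 of 16 tested genes was called, against 9.82% of all genes (median log2FC 0.16). *Pmaip1* (NOXA), a BH3-only activator of apoptosis, read 12.8, 20.2 and 28.9 FPKM in CLPs and 5.18, 6.03 and 3.25 in MPPs (log2FC 1.85 ± 0.29 SE, adjusted p = 0.00168). The survival gene *Bcl2* read 36.5, 26.7 and 27.1 against 18.5, 16.7 and 14.9, under the fold threshold, and *Mcl1* read 121, 143 and 199 against 234, 237 and 205. The BH3-only gene *Bcl2l11* (BIM) read 19.6, 16.8 and 12.9 FPKM in CLPs and 13.9, 21.9 and 8.85 in MPPs, with overlapping groups. *Bcl2a1b* and *Bcl2a1d* are near-identical copies whose reads may be split between them. *Trim33* (chromosome 3 from 103279293 to 103358770 of GRCm38), the gene the series is about, read 12.3, 7.15 and 9.18 FPKM in CLPs and 10.3, 9.96 and 8.58 in MPPs, with a log2FC of -0.04 ± 0.18 SE (adjusted p = 0.888). Of the 12 tested TIF1 and SMAD genes 1 was higher and 1 lower, both inhibitory SMADs, against 9.82% of all genes called (median log2FC -0.05). *Smad7* read 83.8, 72.6 and 66.02 FPKM in CLPs and 25.01, 24.6 and 21.9 in MPPs, and *Smad6* read 0.368, 0.306 and 0.249 against 2.198, 1.78 and 1.93.

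Markers of other cells were read in the same libraries. *Ms4a1* (CD20) was at most 0.207 FPKM and *Cr2* at most 0.0596 in any library, while *Cd22* read 9.66, 10.3 and 7.302 FPKM in CLPs and 0.416, 0.512 and 0.362 in MPPs and *Sdc1* (CD138) 77.4, 62.5 and 67.03 against 22.4, 22.1 and 22.3. Of 5 tested genes 3 were higher, *Cd22* and *Sdc1* among them, and *Jchain* was lower (median log2FC 1.58). The 8 genes of this list found in both tables summed to 158 to 195 FPKM in CLP libraries and 66.7 to 74.4 in MPP libraries. Mature T and NK cell markers had 1 of 9 tested genes called, *Cd8a* at 2.05, 1.97 and 2.02 FPKM in CLPs and 0.386, 0.384 and 0.323 in MPPs, and summed to 17.4 to 24.2 and 11.9 to 16.3 FPKM. Macrophage markers had 3 of 6 lower (4 without CLP replicate 1 and 1 without CLP replicate 3), at sums of 1.16 to 2.59 FPKM in CLPs and 9.86 to 10.1 in MPPs.

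In the stromal and endothelial list 2 of 6 tested genes were higher and 1 lower (median log2FC 2.16), and without CLP replicate 1, *Col1a1* and *Col1a2* were higher too. *Cdh5* (VE-cadherin), the adhesion protein of endothelium, read 15.8, 19.9 and 20.8 FPKM in CLPs and 0.109, 0.108 and 0.0684 in MPPs (log2FC 4.17 ± 0.12 SE, adjusted p = 7.59e-07), and *Pecam1* read 81.7, 78.4 and 74.2 against 36.8, 37.7 and 34.7. The endothelial receptor *Kdr* was at most 0.173 FPKM in any library and *Emcn* was lower in CLPs, at 1.63, 1.42 and 1.54 against 14.1, 13.02 and 15.5. *Cdh5* was thus present in all 3 CLP libraries, unlike *Col1a1*. The list summed to 111 to 402 FPKM in CLPs and 66.98 to 70.4 in MPPs. The part of any such cells in the results was not tested.

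Of the 15 genes with the largest rise, those not yet described were *Epha2* at 83.5, 106 and 100.05 FPKM in CLPs and 2.41, 2.82 and 1.54 in MPPs, the Src family kinase *Blk* of B cells at 60.5, 47.2 and 47.4 against 1.72, 1.59 and 1.896, the sodium pump subunit *Atp1b1* at 96.03, 82.01 and 90.4 against 5.34, 5.15 and 4.897, and *Mir5130* at 65.8, 43.04 and 50.5 against 4.63, 0 and 0. The last is a microRNA gene short enough for FPKM to depend on few reads. Of the 15 with the largest fall, *Hist1h2ap* read 7.58, 23.3 and 25.3 FPKM in CLPs and 445, 469 and 575 in MPPs; histone genes have near-identical copies, so the assignment of its reads is uncertain. *Tie1*, a receptor kinase of endothelium and stem cells, read 0.298, 0.245 and 0.29002 against 15.6, 16.2 and 15.003, and *Rab38* read 2.27, 2.81 and 2.14 against 40.5, 39.96 and 46.7. *Prg2* (eosinophil major basic protein) read 3.51, 3.19 and 12.02 FPKM in CLPs and 72.8, 96.6 and 75.9 in MPPs, with CLP replicate 3 highest among CLPs. *Mcpt8*, the basophil protease, read 1.03, 6.198 and 8.98 against 67.6, 67.2 and 57.6. *Ctla2b*, *Serpina3g*, *Muc13* and *Krt18* had log2FC of -3.66, -3.37, -3.33 and -3.28, and *Myct1* of -3.76.

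The same genes were read, as deposited FPKM and without a test, in the 3 WT libraries of CD115- CDPs, DC progenitors sorted as CD127- cells. *Irf8* was 515 ± 299.6 FPKM there, *Siglech* 55.8 ± 24.98 and *Spib* 14.3 ± 4.05, each between the means of MPPs and CLPs. *Ebf1* was 4.34 ± 3.93 FPKM, *Pax5* 2.59 ± 2.35 and *Rag1* 1.45 ± 1.002, with means nearer to the MPP than to the CLP mean in FPKM. Their libraries differed widely, and replicate 3 was the lowest. *Ebf1* read 4.75, 8.04 and 0.22 FPKM in replicates 1 to 3, *Pax5* 2.82, 4.81 and 0.13, and *Rag1* 1.63, 2.35 and 0.37. *Hlf* was 3.16 ± 0.941 FPKM and *Procr* 1.19 ± 0.786, close to the CLP level, while *Mpo* was 783 ± 782 FPKM, with a spread as large as its mean. Values are mean ± SD, n = 3.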

How the data were processed

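WT CLP and WT MPP libraries, 3 of each, were analysed. Per the labels and the study's methods, polyA RNA was sequenced on BGISEQ-500 as single-end reads of 50 bases, and the tools named are SOAPnuke for filtering, HISAT2 2.0.4, Bowtie2 2.2.5 and RSEM 1.2.12, with mm10. The authors deposited FPKM per gene and library, rounded to 2 decimals, in one table for MPPs and another for CLPs. There were 19710 genes for MPPs and 18378 for CLPs, and the 18169 genes in both, joined by Entrez identifier, were used. Genes present in one table with a WT mean of at least 0.5 FPKM numbered 22 for MPPs and 13 for CLPs and were left out. Read counts were not used here.

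Each library was rescaled by its median ratio to the geometric mean over genes at or above 1 FPKM in all 6 libraries. Genes with a mean of at least 0.5 rescaled FPKM were tested on log2(rescaled FPKM + 1) with lmFit and eBayes (trend) of limma 3.58.1 in R 4.3.3, with no covariate. On simulated data with 200 changed genes among 12511, 91% of the 100 genes changed by 1 on the log2 scale and 97% of those changed by 2 had an adjusted p of at most 0.05. The fold threshold was not applied there, so these are not shares of genes called. Noise was drawn independently for each gene, and no simulated library was set apart from the others. Summaries used pandas 2.3.3 and numpy 2.4.6. Depth came from 629 to 672 genes per library with a single GENCODE vM21 transcript of 200 to 1500 bases. FPKM times transcript length less 50 plus 1 fell on multiples of a step, sought between 30 and 80. The score of the best step was 0.518 to 0.5797, against at most 0.2003 for steps over 10% away. Whole reads could not be assigned to single genes. Gene positions are from RefSeq annotation of GRCm38 (99.9% of tested genes matched).

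The alternatives were FPKM as deposited, TPM over shared genes, quantile normalization, a pseudocount of 0.1, no filter, a filter at a mean of 5 FPKM, no trend, a replicate block, each library left out, no minimum fold change and an adjusted p of at most 0.001. Named genes were, among called genes whose groups do not overlap, the 15 highest and the 15 lowest by log2FC, members of 28 gene lists and *Trim33*; others were chosen after their values were seen. The comparison and the lists were chosen with earlier results of these data known. Columns of the other 12 libraries entered no test. Some genes that meet the rule are not reported here.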

Additional observations from a re-analysis of the deposited data

How the results depend on the processing

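With all libraries and the settings of the report, 1228 genes were called, 595 higher in CLPs and 633 lower. FPKM as deposited gave 541 and 675, TPM 660 and 573, quantile normalization 609 and 604, no filter 584 and 628 and no trend 595 and 633, none of which moved a count by over 1.5 times. The 3 scalings moved the median log2FC of all genes to between -0.048 and 0.065. A pseudocount of 0.1 gave 1856 (822 higher, 1034 lower), since it expands the changes of low genes. A filter at a mean of 5 FPKM gave 737 (402 higher, 335 lower), with 8687 genes tested. With no minimum fold change the count was 5326 (2598 higher, 2728 lower), and at an adjusted p of at most 0.001 it was 480 and 545. Leaving out each library in turn gave between 1205 and 1270 genes called. Further list counts also changed with a library left out, and not all such changes are given. The mature T and NK list had 2 genes higher without CLP replicate 2 or 3 or MPP replicate 1. The IL-7 list had 1 lower without CLP replicate 2 or 3 or MPP replicate 1. The T lineage list had 1 lower without MPP replicate 2 and 5 higher without MPP replicate 3. The TIF1 and SMAD list had 2 lower without MPP replicate 3. The list of PU.1, C/EBP, Runx and E protein factors had 2 lower without CLP replicate 2. The ribosomal list had 2 lower without CLP replicate 3 and 1 lower without MPP replicate 2. Cytokine receptors had 7 lower without CLP replicate 2 or MPP replicate 1, and 6 lower without CLP replicate 3 or MPP replicate 2. Interferon-stimulated genes had 9 lower without CLP replicate 3 or MPP replicate 2, and glycolysis 3 lower without MPP replicate 2 or 3. Homing and adhesion had 3 lower without CLP replicate 3 or MPP replicate 3, and semaphorins 4 higher without CLP replicate 3. The Notch list had 4 higher with TPM and 6 with a pseudocount of 0.1, and the macrophage list 1 lower with TPM or quantile normalization and 6 with that pseudocount.

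The replicate block gave 616 and 636. Replicate numbers 1 to 3 did not pair the libraries: same-numbered CLP and MPP libraries correlated at 0.12, -0.17 and 0.17 in their deviations from the group means, and not every library correlated best with its own number.

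Of 200 genes named in the text and tested, 166 kept their direction and their side of the threshold under every alternative that could be fitted. Over 2773 values, 28 lost the call, 40 gained it and 15 changed direction. By scaling, *Hoxa9* and *H2-Eb1* lost their calls with TPM, *Ifnar1* and *Ly6c2* with values as deposited and with quantile normalization, and *Notch1* and *Pecam1* with quantile normalization, while *Spi1* and *Il2rg* gained one with values as deposited and with quantile normalization. *Bcl2l11* (log2FC 0.201) gave -0.11 to 0.51 with a library left out. *Cd24a* (log2FC 0.17) gave -0.081 to 0.38 with a library left out. *Hoxa7* (log2FC 0.050) gave -0.0101 to 0.13 with a library left out. *Hspa1a* (log2FC -0.33) gave -1.48 to 1.59 with a library left out. *Hspa1b* (log2FC -0.34) gave -1.56 to 1.495 with a library left out. *Hspb1* (log2FC 0.57) gave -0.028 with a pseudocount of 0.1 and -0.403 to 1.79 with a library left out. *Klf2* (log2FC -0.12) gave -0.66 to 0.58 with a library left out. *Myc* (log2FC 0.028) gave -0.0184 with values as deposited, -0.036 with quantile normalization and -0.0118 to 0.058 with a library left out. *Trim33* (log2FC -0.037) gave 0.038 with TPM over shared genes and -0.22 to 0.14 with a library left out. No group has more than 3 libraries, so no single library was tested as an outlier. Genes near the filter at 0.5 FPKM rest on few reads, and their values are limited by depth.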

Other observations

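Gene families that the lists do not hold were read after the values had been seen, by symbol, with every tested member counted. Of 13 cathepsin genes, lysosomal proteases, 4 were higher in CLPs and 1 lower (5 and 1 without CLP replicate 1). *Ctsb* read 219, 237 and 228 FPKM in CLPs and 44.7, 46.02 and 47.002 in MPPs, *Ctss* 90.6, 102 and 99.95 against 32.8, 32.3 and 36.8, and the lower one was the granule protease *Ctsg*, at 14.7, 22.9 and 32.3 against 111, 109.6 and 103. *Ctsd* read 131, 162 and 148 FPKM in CLPs and 163, 156 and 172 in MPPs and was not called. Semaphorin genes were higher in 5 of 10 tested and lower in 1. *Sema4d* read 91.4, 76.2 and 74.8 FPKM in CLPs and 23.1, 23.2 and 19.1 in MPPs, *Sema4b* 37.2, 32.9 and 31.02 against 6.36, 6.38 and 6.26, and *Sema7a* 12.8, 11.1 and 12.1 against 1.95, 2.27 and 1.42. *Tlr12* read 8.65, 8.66 and 7.49 FPKM in CLPs and 1.56, 1.43 and 1.56 in MPPs and, with *Tlr9*, made 2 of 6 Toll-like receptor genes higher.

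Ifitm genes, which encode membrane proteins that restrict virus entry, were lower in 4 of 6 tested and higher in none. *Ifitm1* read 17.8, 26.1 and 37.4 FPKM in CLPs and 233, 208 and 242 in MPPs (log2FC -3.08 ± 0.23 SE, limma adjusted p = 3.82e-05), and *Ifitm3* read 52.4, 70.5 and 80.3 against 328, 327 and 363. The guanylate-binding proteins, interferon-induced GTPases, divided. *Gbp4* read 25.3, 8.58 and 9.08 FPKM in CLPs and 1.14, 1.37 and 1.22 in MPPs and *Gbp8* 41.8, 12.4 and 11.4 against 2.49, 2.25 and 3.52, both highest in CLP replicate 1, while *Gbp2* read 2.52, 4.2001 and 3.32 against 15.7, 15.1 and 15.4. Of the 10, 5 were higher and 1 lower, and 4 were higher without CLP replicate 1. Of 83 cytoplasmic ribosomal protein genes 1 was called, and the median log2FC was -0.44, or -0.31 without CLP replicate 1, with the summed level lowest in that library (82829 to 112504 FPKM in CLPs, 125798 to 144099 in MPPs). The osteoblast genes *Sparc* (0.418, 38.99 and 46.95 FPKM in CLPs, 0.713, 0.571 and 0.733 in MPPs), *Bglap* and *Bglap2* shared the order of *Col1a1* and *Col1a2* over the CLP libraries. None of the 5 was called by limma with all libraries (1 had an unadjusted p of at most 0.05), and all 5 were higher without CLP replicate 1. Of 62 tested histone genes 1 was higher and 3 were lower, or 6 and 2 without CLP replicate 1. Of 261 small nucleolar RNA and microRNA genes, 31 were higher and 4 lower, or 42 and 7 without that library and 28 and 11 without CLP replicate 2.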
